A study of Mus musculus and Homo sapiens with 4 samples.

Results

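DNA replication and S-phase genes were described here as 30 named genes, found as the probe sets whose platform gene symbol was exactly 1 of the 30 names, whatever the case of its letters. All 30 were found on both arrays, with 69 of 45101 probe sets on the mouse array and 57 of 54675 on the human array. RNA came from 4 stably infected tumour cell lines, with 1 array for each. Mouse osteosarcoma cells (LM8, grown in MEM with serum) and human melanoma cells (A375M, grown in DMEM with serum) had each been infected with the control retroviral vector (pSIREN-RetroQ-control) or with a pSIREN-RetroQ vector against the Merm1/Wbscr22 gene of its own species. The current symbol of that gene is BUD23 (Bud23 in the mouse), and it encodes a methyltransferase that modifies 18S ribosomal RNA. All 4 lines therefore carried a retroviral vector, and the single knock-down line of each species stands for its condition. The sources used here do not say whether a line was a pool or a clone. The comparison asked how transcripts of the replication machinery read in cells with less of the target gene.

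DNA replication begins in G1, when ORC, CDC6 and CDT1 load the MCM2 to MCM7 ring onto origins. At the start of S phase CDC45 and the GINS complex join the ring and turn it into the active helicase, after which primase and DNA polymerases copy the strands behind it. PCNA, a sliding clamp placed by the RFC loader, holds the polymerases on DNA, and FEN1 and LIG1 process and seal the lagging strand. Most of these genes are transcribed at the G1/S boundary by E2F factors, and their transcript levels are widely used as a sign of proliferation.

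Mouse promoter sequences are shown first, because E2F control is a feature that the choice of genes did not use. RefSeq windows of 300 bases (assembly GRCm38.p6, 250 bases before to 50 after the annotated start) were listed for 24 of the 30 genes. An E2F motif, spelled TTTCGCGC, TTTGGCGC, TTTCCCGC or TTTGCCGC and searched on both strands, was present in 11 of 28 windows, or 39.3%, against 2.26% of all 32851 windows in the table. It was present in 33.3% of the 54 windows of other replication genes. The CCAAT box, searched as CCAAT on both strands, was in 14 of the 28 windows and in 37.4% of all windows. The CHR element, searched as TTTGAA or TTCGAA on both strands, was in 21.4% of the 28 windows and in 19.2% of all windows. A match is a stretch of letters and not a measured binding site.

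The windows below belong to the genes with the lowest difference in LM8 (Tyms), the lowest in A375M (Cdc45) and the highest in LM8 that has a listed window (Rfc3), with capitals marking E2F motif letters. They lie at chr5:30073576-30073875 on the minus strand (Tyms), chr16:18811923-18812222 on the minus strand (Cdc45) and chr5:151651159-151651458 on the minus strand (Rfc3).
Tyms: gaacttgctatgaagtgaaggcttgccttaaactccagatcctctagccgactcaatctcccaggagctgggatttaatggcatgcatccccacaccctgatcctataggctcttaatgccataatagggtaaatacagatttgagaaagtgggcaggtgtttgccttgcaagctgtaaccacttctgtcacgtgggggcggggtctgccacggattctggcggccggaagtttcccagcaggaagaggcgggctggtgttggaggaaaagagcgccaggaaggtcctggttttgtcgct
Cdc45: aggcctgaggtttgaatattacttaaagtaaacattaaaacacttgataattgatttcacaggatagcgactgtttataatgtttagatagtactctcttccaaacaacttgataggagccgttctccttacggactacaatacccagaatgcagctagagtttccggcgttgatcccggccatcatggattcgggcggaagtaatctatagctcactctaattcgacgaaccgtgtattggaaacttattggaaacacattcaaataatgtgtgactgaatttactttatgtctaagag
Rfc3: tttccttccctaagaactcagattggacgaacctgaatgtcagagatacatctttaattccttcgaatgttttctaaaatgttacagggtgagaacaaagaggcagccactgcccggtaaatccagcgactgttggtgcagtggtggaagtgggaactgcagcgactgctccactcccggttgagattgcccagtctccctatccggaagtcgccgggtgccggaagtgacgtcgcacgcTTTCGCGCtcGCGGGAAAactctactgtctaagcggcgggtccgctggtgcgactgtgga
The Rfc3 window held 2 E2F matches, which lie side by side at the annotated start, and 1 CCAAT and 1 CHR match. The Tyms window held no match to any of the 3 motifs, and the Cdc45 window held 2 CCAAT and 2 CHR matches and no E2F match. The window of Mcm5, the highest of the 30 genes in A375M, is not printed. It held 2 overlapping E2F matches, 3 CCAAT matches and 0 CHR matches. A window without a match says only that these letters are not in it. Grouped by window, the 11 genes with an E2F match had a median difference (knock-down minus control, log2) of 0.080 in LM8 and -0.060 in A375M. The 13 genes without a match had medians of 0.039 and 0. In A375M the 11 were 6 lower, 2 higher and 3 with identical values in both arrays. The 13 were 5 lower, 1 higher and 7 identical, and their median of 0 rests on the identical values, which are taken up below. These values are a description, and the windows are mouse sequence in both cases.

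Values are log2 RMA expression values, and each difference is knock-down minus control within a line. A gene is represented by its brightest probe set on average, and was kept if that probe set exceeded the median of all non-control probe sets on either array of its line. All 30 genes were kept in both lines. Each group held 1 array, so differences inside a line carry neither a p-value nor a check by replication. As a technical gauge, probe sets of 1 gene were compared, and their median SD over all genes with several kept probe sets was 0.12 (LM8) and 0.071 (A375M). That gauge says nothing of how separate cultures or separately infected lines would vary. Since whole cultures were measured, fewer cells in S phase and less transcript per cell cannot be told apart.

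The target gene checked the labels. The Bud23 probe set read 10.61 in the LM8 control cells and 8.48 in knock-down cells, which leaves 22.9% of the control level. The bright BUD23 probe set read 10.70 and 8.38 in A375M, which leaves 20.04%, and a dim probe set below the array median differed by -0.12. In LM8 5 of the 5 osteoblast markers with a probe set of their own lay above the array median in both arrays, and in A375M 7 of the 7 melanocyte markers did. Melanocyte markers did so for 3 of 8 in LM8 and osteoblast markers for 3 of 7 in A375M. Leukocyte, epithelial and endothelial markers did so for 1 of 4 each in LM8 and 2 of 4 each in A375M. The array median is a low bar, at 4.64 and 4.67 in A375M. In the A375M control cells SOX10, S100B and MITF read 11.62, 10.68 and 10.61, but TYR, TYRP1, PMEL and MLANA only 6.04, 6.01, 5.42 and 4.84. The median difference was 0.25 for the osteoblast markers in LM8 and 0.14 for the melanocyte markers in A375M. Both lists were of mixed sign, with ranges of -0.18 to 0.40 and -0.097 to 0.35. The part of other cell types or of differentiation in the results was not tested.

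The replication genes were first counted past fold thresholds that few kept genes passed in either line. None of the 30 differed by 1.5-fold in LM8, where 1.31% of 11646 kept genes were at least that much lower and 1.16% at least that much higher. None did in A375M, where the corresponding shares of 13244 kept genes were 0.37% and 0.378%. With shares this small, a count of 0 among 30 genes says little about the 30. At 1.2-fold, Pole in LM8 was the only call among the 30 genes in the 2 lines, beside 8.85% of kept LM8 genes higher and 7.58% lower by that much, and 3.21% higher and 4.67% lower in A375M. The largest difference among the 30 was 1.22-fold in LM8 and 1.19-fold in A375M. In A375M 13 of the 30 had identical values in both arrays, which are taken up below.

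**Figure D1:**
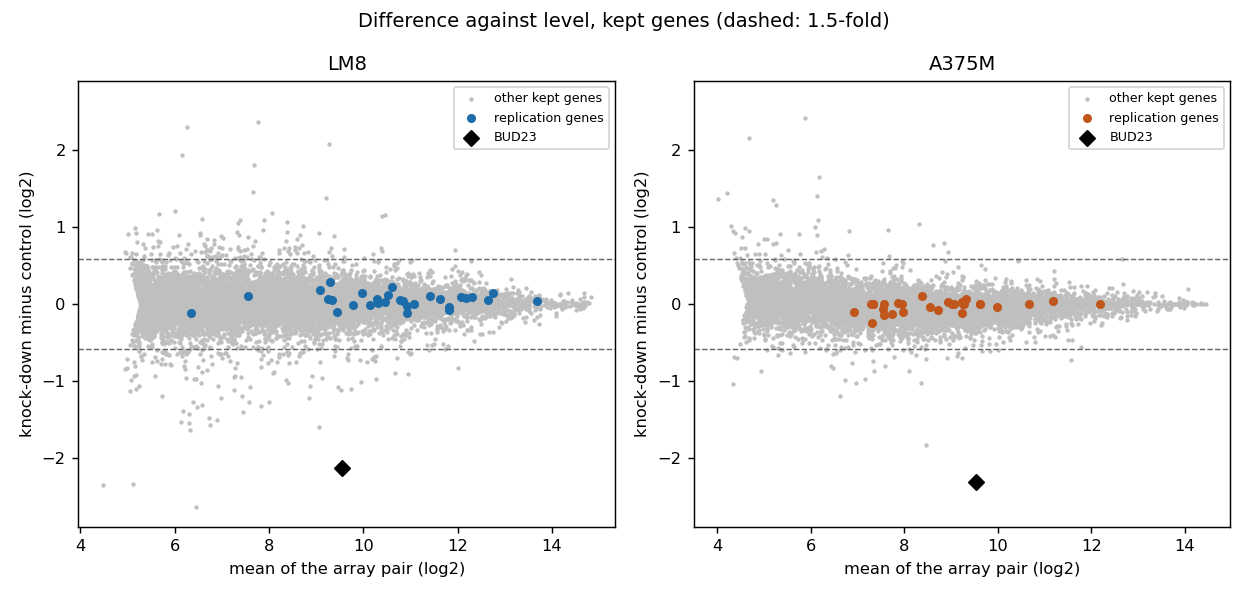
Difference (knock-down minus control, log2) against the mean of the array pair (log2) for every kept gene of LM8 (left) and A375M (right), with the 30 replication genes in colour, BUD23 as a diamond and dashed lines at 1.5-fold. All 30 replication genes lie between the dashed lines, while BUD23 lies at -2.13 in LM8 and -2.32 in A375M.

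In LM8 21 of the 30 genes read higher in the knock-down array and 9 lower, with a median difference of 0.050, where 53.8% of all kept genes were higher and 46.0% lower with a median of 0.015. On the same arrays 27 control probe sets, by their names made for transcripts spiked in before labelling, had a median difference of 0.14, larger than that of the genes. Their part in the result was not tested. The corresponding 27 probe sets had a median of 0.017 on the A375M arrays. A further 18 control probe sets, by their names made for transcripts added at hybridisation, had medians of -0.00045 in LM8 and 0.056 in A375M. The differences of the 30 genes spanned -0.12 to 0.29 with an SD of 0.095 between genes, against 0.23 over all kept genes. Differences were narrower among bright genes, and 29 of the 30 lay above the 70th percentile of the array. Among all genes above that percentile the middle 50% of differences ran from -0.078 to 0.11, and among the 30 genes above the median filter from -0.0089 to 0.096. In size, 22 of the 30 differences were below the probe set gauge, as were 52.3% of all kept genes.

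In A375M 11 of the 30 genes read lower in the knock-down array, 6 higher and 13 identical, with a median of 0, where 40.3% of all kept genes were lower, 29.0% higher and 30.8% identical, also with a median of 0. Among all A375M genes above the 70th percentile, where all 30 lay, 48.2% were lower, 27.1% higher and 24.6% identical. Of the 30 genes 43.3% were identical. Identical values are a property of the deposited human table. In it 45.4% of all probe sets, dim ones included, had exactly the same number in both arrays. So did 22 of the 57 probe sets of these genes, or 38.6%. The control value of 32 of the 57, or 56.1%, also recurred in another probe set of the array, as did that of 67.3% of all probe sets. Which step made such values is not recorded in the labels, and an identical pair is therefore not read as a measured absence of change. The split between directions in A375M depended on the scaling, for all genes as for the 30. It was 27 lower and 3 higher after each array was centred on its median, where 77.0% of all kept genes were lower. It was 9 lower and 21 higher after repeated quantile normalization, where 57.1% of all kept genes were higher. It was 10 lower and 20 higher after a loess curve on level was removed, where 54.2% were higher. In LM8 29 or 30 of the 30 genes were kept, and between 20 and 24 of them were higher under every alternative. Over all kept LM8 genes the share higher ran from 51.6% with the mean of probe sets to 57.0% after centring.

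**Figure D2:**
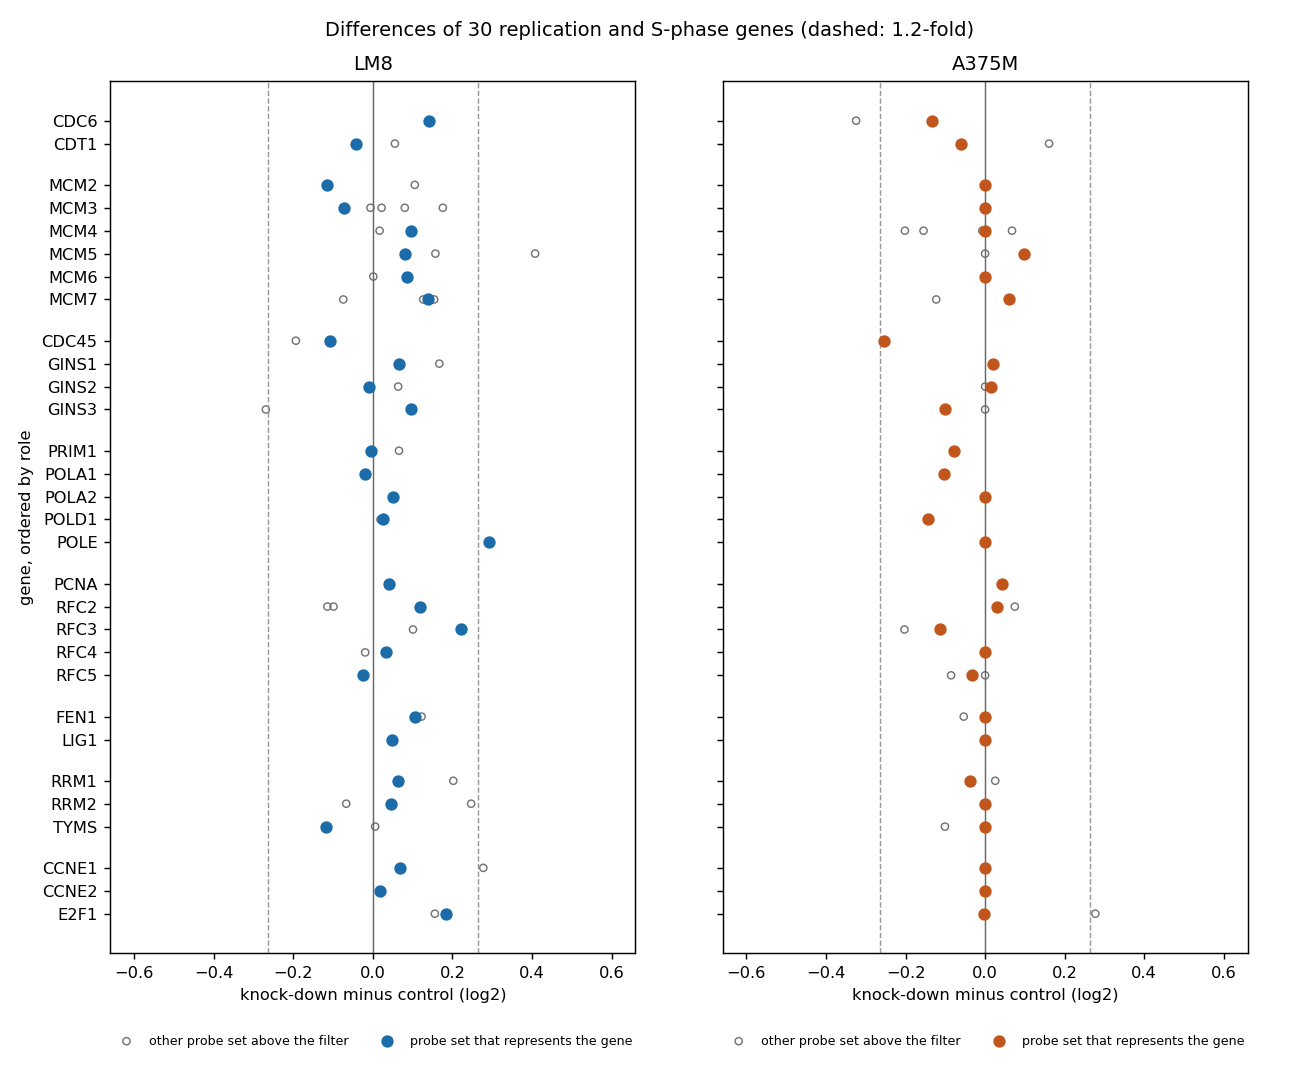
Differences (knock-down minus control, log2) of the 30 genes in LM8 (left) and A375M (right), ordered by role, with filled points for the probe set that represents the gene, open points for its other probe sets above the filter, and dashed lines at 1.2-fold. Filled points lie right of 0 for 21 genes in LM8, and only POLE in LM8 lies past a dashed line, while 13 filled points lie exactly at 0 in A375M.

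Of the origin licensing factors, CDC6 read in opposite directions in the lines. CDC6 is the ATPase that helps load the MCM ring. Cdc6 read 9.90 in the LM8 control cells and 10.05 in knock-down cells, differing by 0.14 on its only probe set. CDC6 read 7.80 and 7.67 in A375M, a difference of -0.13, and its other probe set read 7.50 and 7.17, a difference of -0.32. It was thus higher in the mouse knock-down line and lower in the human one, by more than the probe set gauge in each. A difference at least as large in either direction was seen in 39.8% of kept LM8 genes and 24.0% of kept A375M genes. CDT1, the loading factor that geminin inhibits, differed by -0.041 in LM8 and -0.060 in A375M. Its other kept probe set had the opposite sign in both lines, at 0.055 and 0.16.

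The MCM2 to MCM7 ring, the core of the replicative helicase, stayed within 0.14 of its control values in both lines on the probe sets that represent the genes. In LM8 Mcm4, Mcm5, Mcm6 and Mcm7 differed by 0.096, 0.080, 0.086 and 0.14, and Mcm2 and Mcm3 by -0.12 and -0.073. Mcm7 read 12.69 in control cells and 12.83 in knock-down cells, and its 4 probe sets differed by -0.075 to 0.15. Mcm2 read 10.98 and 10.86, while its other probe set read 10.05 and 10.16, so its probe sets gave differences of -0.12 and 0.11. The subunits of this 1 complex were therefore not separated beyond the disagreement between their own probe sets. The widest value in the ring was that of a dimmer Mcm5 probe set, which read 6.93 and 7.34, a difference of 0.41, against 0.16 and 0.080 on the brighter ones. In A375M the representative probe sets of MCM2, MCM3, MCM4 and MCM6 were identical in both arrays. The other kept MCM4 probe sets differed by -0.0072, 0.068, -0.20 and -0.15. MCM5 read 8.33 in control cells and 8.43 in knock-down cells, differing by 0.099, while its other probe set was identical. MCM7 differed by 0.061 on its brighter probe set and by -0.12 on the other.

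CDC45, which joins the ring to form the active helicase, was lower on every kept probe set in both lines, as was POLA1. In LM8 Cdc45 read 9.49 in control cells and 9.38 in knock-down cells on its brighter probe set and 6.59 and 6.40 on the other, differences of -0.11 and -0.19. In A375M the only CDC45 probe set read 7.45 and 7.19, a difference of -0.25 or 1.19-fold, and the lowest of the 30 genes there. As a background to that value, 8.45% of all kept A375M genes differed by at least as much in either direction. The LM8 value lay near the middle, since 49.9% of kept genes differed by as much. The GINS subunits, which complete the helicase, were of mixed sign. GINS3 read 6.97 and 6.87 in A375M, a difference of -0.10, and its other probe set was identical. In LM8 the Gins3 probe sets gave 0.096 and -0.27. Gins1 and Gins2 differed by 0.067 and -0.010 in LM8, and by 0.021 and 0.015 in A375M. Their other kept probe sets in LM8 differed by 0.17 and 0.063, so Gins2 was of both signs. The other kept GINS2 probe set in A375M was identical.

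Among primase and polymerase genes the lines again differed in which gene lay farthest from 0. Pole, the catalytic subunit of the leading strand polymerase, read 9.14 in the LM8 control cells and 9.43 in knock-down cells, differing by 0.29. Its single probe set leaves that value without a second measurement, and 13.6% of kept LM8 genes differed by at least as much. POLE was identical in the A375M arrays at 7.28. POLD1, the catalytic subunit of polymerase delta, read 7.63 and 7.49 in A375M, a difference of -0.14. POLA1, the catalytic subunit of polymerase alpha, read 8.03 and 7.92, a difference of -0.10. PRIM1, the catalytic primase subunit, read 8.77 and 8.69, a difference of -0.079. All 3 read lower in the A375M knock-down cells, each on the only probe set of its gene, and POLA2 was identical. In LM8 Pold1, Pola1, Prim1 and Pola2 differed by 0.025, -0.019, -0.0050 and 0.051, all below the gauge. The other kept Prim1 probe set there had the opposite sign, at 0.0655.

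PCNA differed by similar amounts in the lines, and the clamp loader genes spread around 0. Pcna read 13.66 in the LM8 control cells and 13.70 in knock-down cells, and PCNA read 11.16 and 11.20 in A375M, differences of 0.039 and 0.043. Both lie below the gauge. Rfc3, a small subunit of the clamp loader, read 10.49 and 10.71 in LM8, a difference of 0.22, and 0.10 on its other probe set, which had the same control value. RFC3 read 9.30 and 9.19 in A375M, a difference of -0.11, and -0.20 on its other kept probe set. RFC3 was thus, like CDC6, higher on all kept probe sets in LM8 and lower on all in A375M. Rfc2 differed by 0.12 on its bright probe set in LM8, from 10.46 to 10.58, but by -0.099 and -0.11 on the dimmer ones. In A375M RFC2 differed by 0.030. Rfc4 and Rfc5 differed by 0.032 and -0.024 in LM8, while RFC4 was identical and RFC5 differed by -0.034 in A375M.

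The genes of lagging strand processing differed by little. Fen1, the flap endonuclease, differed by 0.11 and 0.12 on its LM8 probe sets, and Lig1, the ligase that seals Okazaki fragments, by 0.048. FEN1 and LIG1 were identical in the A375M arrays, and a dimmer FEN1 probe set differed by -0.054.

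Deoxynucleotide synthesis genes showed how far probe sets of 1 gene can disagree. Rrm1 and Rrm2, the subunits of ribonucleotide reductase, differed by 0.063 and 0.045 in LM8 on their bright probe sets. The other kept Rrm1 probe set differed by 0.20, and the other kept Rrm2 probe sets by 0.25 and -0.067. RRM1 differed by -0.038 in A375M and by 0.025 on its other kept probe set. RRM2 was identical there, and its other kept probe set differed by -0.0025. Tyms, thymidylate synthase, read 6.42 in the LM8 control cells and 6.30 in knock-down cells, differing by -0.12, on a probe set not far above the array median of 5.29. The other kept Tyms probe set differed by 0.0057. A further mouse probe set, assigned to both Tyms and its pseudogene Tyms-ps and so left out by the rule, read 11.07 and 11.18, a difference of 0.11. The sign of Tyms in LM8 therefore depended on the probe set. TYMS was identical in A375M at 12.19, and its other kept probe set differed by -0.10.

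Of the G1/S regulators, E2f1 lay farthest from 0 in LM8, where it exceeded the gauge. E2f1, the transcription factor that activates many of the genes above, read 8.98 in control cells and 9.17 in knock-down cells, differing by 0.18, and 0.16 on its other kept probe set. Ccne1, which encodes cyclin E1, differed by 0.068 on its bright probe set and by 0.28 on the other, and Ccne2, which encodes cyclin E2, by 0.017, so that both cyclin genes lay below the gauge on the probe sets that represent them. In A375M CCNE1 and CCNE2 were identical in both arrays. E2F1 differed by -0.0039 there on its bright probe set and by 0.28 on a dimmer one, from 5.41 to 5.69.

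Probe sets of 1 gene gave a second view of each gene within the same arrays. In LM8 22 of the 30 genes had several kept probe sets, of which 10 genes were higher on all of them, 1 (Cdc45) was lower on all and 11 were of both signs. Over all 5313 such LM8 genes the shares were 26.5%, 24.5% and 48.6%. In A375M 16 had several, of which 1 (RFC2) was higher on all, 2 (CDC6 and RFC3) were lower on all, 5 were of both signs and 8 had an identical probe set as their lowest or highest value. Over all 6265 such A375M genes the shares were 7.71%, 18.2%, 23.1% and 51.0%. The median SD between probe sets was 0.078 in LM8 and 0.067 in A375M for these genes. Over the 8 alternatives in scaling, filter and probe set choice, 17 of the 30 genes stayed higher and 3 (Cdc45, Rfc5 and Tyms) stayed lower in LM8, where 41.7% of all kept genes stayed higher and 35.8% lower. The alternatives did not include the Tyms probe set shared with its pseudogene. The second kept Tyms probe set was higher, by 0.0057. In A375M 1 stayed higher (PCNA, by 0.043 in the deposited values) and 7 stayed lower (CDC6, CDC45, PRIM1, POLA1, POLD1, RFC3 and RRM1), where 19.1% of all kept genes stayed higher and 25.6% lower. RRM1 came as near to 0 as -0.0022, and its other kept probe set was higher. These counts cover each alternative that gave the gene a value, and the others changed sign or reached 0 under some alternative.

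Direction was shared by the lines for 10 of the 30 genes, or 33.3%, against 35.6% of the 8981 genes kept in both lines. In all, 5 were higher in both lines (MCM5, MCM7, GINS1, PCNA and RFC2) and 5 were lower in both (CDT1, CDC45, PRIM1, POLA1 and RFC5). Of these 10, PCNA and CDC45 alone kept their sign in both lines under every alternative that gave a value. A further 6 were higher in LM8 and lower in A375M, 1 (GINS2) was lower in LM8 and higher in A375M, and 13 were identical in A375M. Across the 30 genes, which share their arrays and are not independent replicates, the differences of the lines correlated with Pearson's r of 0.18 and Spearman's rho of 0.14, against 0.033 and 0.0080 over all 8981 genes kept in both lines. A limma fit of the mean difference over both lines, with the line as a block, takes the mouse line and the human line as 2 replicates of 1 condition. It called 0 of the 30 genes at an adjusted p under 0.05, where 0.0111% of the 8981 genes were called, which is BUD23 alone. At an unadjusted p under 0.05 it called 0 of the 30, against 3.1% of all genes. CDC45 had the lowest p of the 30, with a mean difference of -0.18 (SE 0.086, unadjusted p = 0.088, adjusted p = 0.99). The mean differences of the 30 ran from -0.18 to 0.15 with a median SE of 0.082, so a shared shift of the size seen here is not separated from 0 by this fit.

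**Figure D3:**
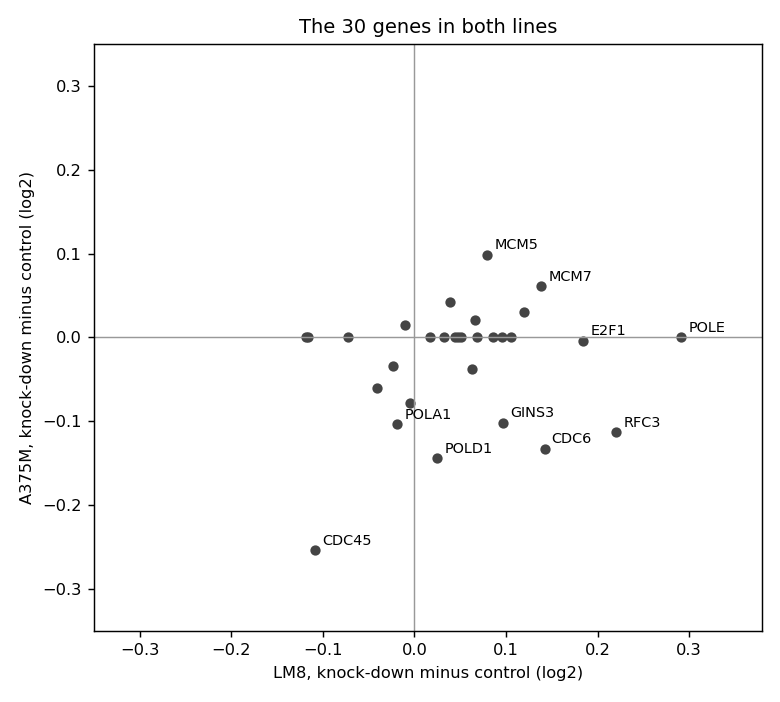
Difference of each of the 30 genes in LM8 (horizontal axis, log2) against its difference in A375M (vertical axis, log2), with 1 point a gene and names beside the points farthest from 0. CDC45 lies lowest, CDC6 and RFC3 lie right of 0 and below 0, and 13 genes lie on the horizontal line at 0.

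Other genes of replication and S phase were taken as a list of 52 that holds no gene of the 30. In LM8 50 were kept, of which 27 were higher and 23 lower with a median of 0.014, where 53.8% of all kept genes were higher with a median of 0.015, and 0 differed by 1.5-fold. Their median was -0.0022 with the mean of probe sets and -0.0011 after loess removal. The highest were Mcm9, a helicase of recombination repair, at 0.55, the checkpoint mediator Clspn at 0.35, and the E2F family genes E2f7 at 0.30 and E2f3 at 0.21. The LM8 minimum was the helicase gene Recql4 at -0.34, followed by the polymerase delta subunit gene Pold4 at -0.26, Wdhd1 at -0.21 and the origin recognition gene Orc4 at -0.18, whose 3 kept probe sets ran from -0.18 to 0.39. Mcm9, at 6.19 and 6.74, lay close to the filter and its other kept probe set differed by -0.36. The other kept probe sets of Clspn and E2f3 differed by 0.044 and -0.058. In A375M 51 were kept, of which 15 were higher, 15 lower and 21 identical with a median of 0, where 29.0% of all kept genes were higher and 40.3% lower. The lowest were E2F7, an E2F factor that represses transcription, at -0.48, the chromatin assembly gene CHAF1B at -0.25, TIPIN at -0.14 and CLSPN at -0.11. The highest were SLBP, the histone stem-loop binding protein gene, at 0.13, TFDP1 at 0.12, RPA3 at 0.090 and CDK2 at 0.088. E2F7 read 9.09 in the LM8 control cells and 9.38 in knock-down cells, and 8.44 and 7.97 in A375M, each on 1 kept probe set.

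Genes of the next phase, G2/M, are given beside these as a further reading of the cell cycle. In LM8 17 of 24 kept G2/M genes were higher and 7 lower with a median of 0.060, where 53.8% of all kept genes were higher. With the mean of all probe sets of a gene they were 13 higher and 11 lower with a median of 0.0060, while the replication genes had a median of 0.052. In A375M 21 of 25 were lower, 0 higher and 4 identical with a median of -0.088, where 40.3% of all kept genes were lower. Above the 70th percentile 21 of 24 G2/M genes were lower, beside 48.2% of all genes. The replication genes had a median of 0 on the same arrays. After repeated quantile normalization the A375M G2/M genes were 16 lower and 8 higher with a median of -0.035, beside 0.044 for the replication genes. MKI67, the gene of the proliferation antigen Ki-67, read 7.02 in the A375M control cells and 6.45 in knock-down cells, differing by -0.57, with a range of -0.57 to -0.030 over its 4 kept probe sets. TOP2A differed by -0.041 and CCNB1, the cyclin B1 gene, by -0.098 there, and by -0.24 and -0.42 on their other kept probe sets. In LM8 Mki67 differed by 0.11 and Top2a by 0.063, with -0.28 as the lowest of its kept probe sets. The difference between the replication and the G2/M lists has no replicate and was not tested.

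**Figure D4:**
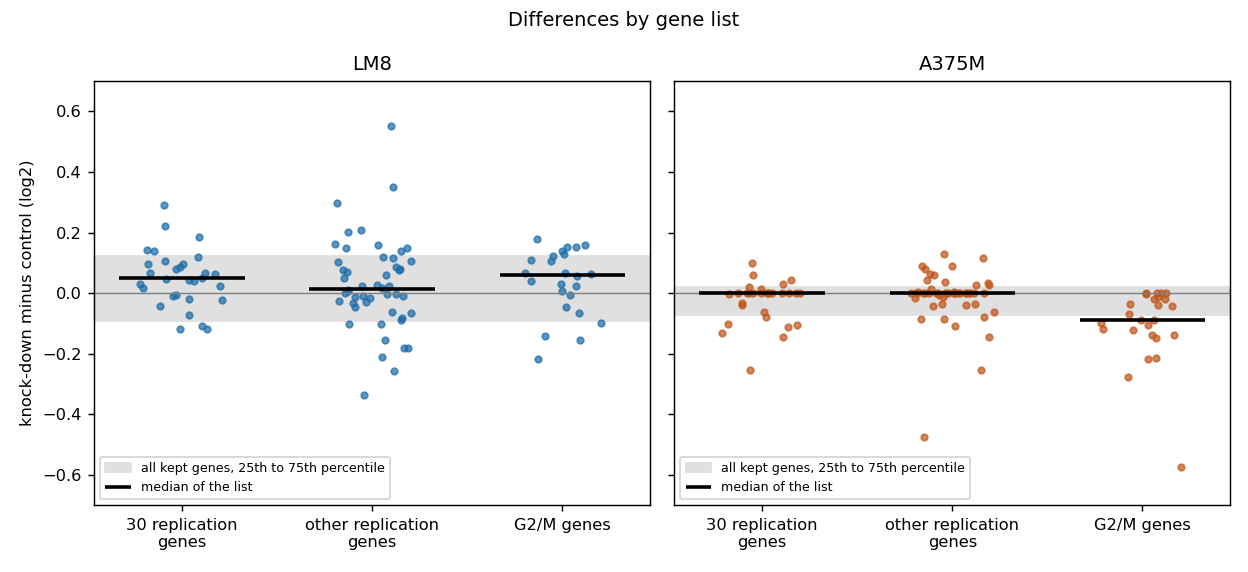
Differences (knock-down minus control, log2) of the 30 replication genes, the other replication genes and the G2/M genes in LM8 (left) and A375M (right), with 1 point a kept gene, a bar at each median and a grey band from the 25th to the 75th percentile of all kept genes. The medians are 0.050, 0.014 and 0.060 in LM8 and 0, 0 and -0.088 in A375M.

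**Figure D5:**
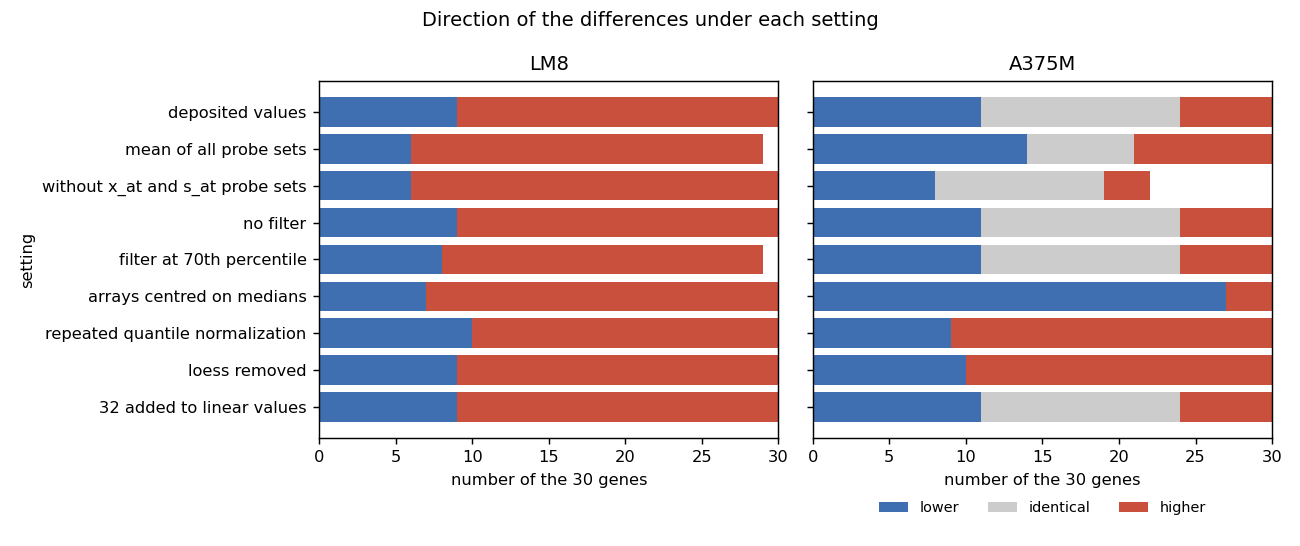
Number of the 30 genes that were lower, identical or higher in the knock-down array with the deposited values and under each alternative in LM8 (left) and A375M (right), where a bar shorter than 30 means that some genes were not kept. LM8 keeps a majority of higher genes throughout, where 51.6% to 57.0% of all kept LM8 genes were higher. A375M goes from 27 lower after centring to 21 higher after repeated quantile normalization. There 77.0% of all kept A375M genes were lower and 57.1% higher respectively.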

How the data were processed

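The 4 arrays were Affymetrix 3' expression arrays, hybridised with biotinylated cRNA per the labels' protocols. The deposited log2 values, 1 for each probe set, came from RMA, per the submitters' processing notes. RMA equalises array distributions and so hides a shift shared by all transcripts. The software and the arrays processed together are not given in the sources used here. Groups were taken from the sample titles, with 1 array a group, and array number limits the precision. Probe sets were named from the supplied platform annotation. Those with several symbols named no gene.

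Differences were computed in Python 3.11.15 and counted past 1.5-fold (alternatives: 1.2-fold, 2-fold). Log2 values of genes kept in both lines were fitted with limma 3.58.1 in R 4.3.3, the line entering as a block, and p-values were adjusted by Benjamini-Hochberg over 8981 genes joined by symbol. The genes described in full were the 8 with the largest differences in each line, because 0 reached 1.5-fold. Of the 52 other replication genes the 4 highest and 4 lowest were named, and of the 25 G2/M genes MKI67, TOP2A and CCNB1. The promoter of the highest LM8 gene with a listed window was added after its value was seen. The 30 genes and the lists were chosen with earlier results of these data known. Alternatives covered the low-value filter (none, or the 70th percentile), scaling (centring, repeated quantile normalization, loess removal with span 0.4), probe set choice (averaging, or leaving out IDs ending in _x_at or _s_at) and 32 added to the linear values. The scripts were tested on simulated data.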

Additional observations from a re-analysis of the deposited data

Results flagged for a closer look

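Each line gives 1 difference, so the contrast between lines has no replicate and was not tested. The following read in opposite directions in LM8 and A375M, each by at least the median SD between probe sets of 1 gene in its line. CDC6 differed by 0.14 in LM8 and -0.13 in A375M. RFC3 differed by 0.22 and -0.11, and its other kept LM8 probe set by 0.10, less than that SD. Among the other replication genes E2F7 differed by 0.30 and -0.48, CLSPN by 0.35 and -0.11, and CHAF1B by 0.15 and -0.25. The other kept Clspn probe set in LM8 differed by 0.044, less than that SD, and the A375M one was dim, at 5.70 and 5.59. As a background, 52.3% of all kept LM8 genes and 58.9% of all kept A375M genes lay within that SD, so passing it was common. Of the 8981 genes kept in both lines, 2152 were higher in LM8 and lower in A375M by any amount, and 1089 the reverse. How many of them passed that SD in both lines was not counted. The G2/M list, taken by its median and not by the gauge, was at 0.060 in LM8 and -0.088 in A375M. With the mean of all probe sets of a gene its LM8 median was 0.0060, with 13 genes higher and 11 lower.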

How the results depend on the processing

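The 17 summary values were recomputed under the alternatives, and 136 of 145 recomputed values stayed within the gauge or within 1.5 times the count. That number is no measure of stability, since the LM8 gauge is wider than each LM8 list median. With the mean of probe sets the LM8 median of the other replication genes went from 0.014 to -0.0022. That of the G2/M genes went from 0.060 to 0.0060, and both stayed within the gauge. Counts of 0 had little room to move. The count of the 30 genes higher in LM8 at the fold threshold was 0 at 1.5-fold and 1 at 1.2-fold. In A375M 27 genes were lower after centring, against 11. The count of higher A375M genes, 6 with the deposited values, was 3 without probe sets ending in _x_at or _s_at, 3 after centring, 21 after repeated quantile normalization and 20 after loess removal. The first of these kept 22 of the 30 genes. The A375M BUD23 difference was -1.22 with the mean of its probe sets, -0.12 without probe sets ending in _x_at or _s_at, which leaves the dim one, and -2.21 with 32 added. For the other changes the cause was not tested. The blocked limma fit called 0 of the 30 genes under each alternative. With no replicate block for the line it called 0 of all 8981 genes, BUD23 included, and so says nothing about the 30. The lowest adjusted p was 0.94, and at most 1 gene had an unadjusted p under 0.05 in any of the blocked fits. Over all kept genes, the count at least 1.5-fold lower in LM8 was 153, and was 80 at the stricter filter and 90 with 32 added. The count higher was 135, and was 71 with the mean of probe sets, 68 at the stricter filter, 67 with 32 added and 212 with no filter. In A375M the count lower was 49, and was 23 both with the mean of probe sets and with 32 added. The count higher was 50, and was 32 with the mean of probe sets, 20 at the stricter filter and 15 with 32 added. No leave-one-out value could be had, since each group held 1 array. Signal over background limits the dim probe sets, Tyms and Mcm9 in mouse among them.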
